A study of Mus musculus with 17 samples.

Results

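The 33 genes described here are a list of fibroblast and extracellular matrix genes, measured by RNA sequencing of cultured mouse bone marrow-derived macrophages. All 33 were found by symbol among the 55401 gene identifiers of the count table, and all 33 passed the filter on low counts in each of the fits used. The list was chosen by the measured levels of these genes across all 6 groups, as a sign of stromal cells in marrow cultures. Levels and differences of the members are therefore given as a description, without a test, and no threshold set their choice. The 17 libraries fall into 6 groups. Macrophages of the C57BL/6J strain formed 4 of them, namely a control group (3 libraries), a group given tumour-conditioned medium of the B16F10 mouse melanoma line (3 libraries), and groups given that medium with KCl (3 libraries) or NaCl (2 libraries) added. Exposure lasted 6 hours, and either salt reached 40 mM. The other groups received conditioned medium with isotonic KCl. One came from Kcnj2f/f mice, in which the potassium channel gene Kcnj2 is flanked by recombination sites (3 libraries, called floxed here), and the other from Lyz2-Cre-Kcnj2f/f mice (3 libraries, called knockout here). Lyz2-Cre is a Cre driven from a gene of myeloid cells, and which cells of these cultures the deletion reached was not tested. The isotonic groups differ from the others in strain and in treatment at once, and their levels are set beside the others without a test. What the control cells received, the KCl dose of the isotonic groups, and whether replicates came from separate mice or cultures are not stated. P-values thus speak only of how far these libraries scatter, and that scatter may be technical.

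Stromal cells of bone marrow are fibroblast-like cells of mesenchymal origin that adhere to plastic and can persist in marrow cultures beside macrophages. They are known for secreting fibrillar collagens, which are folded with the help of a dedicated chaperone, cut to size outside the cell and cross-linked into fibres that carry proteoglycans and glycoproteins. Macrophages are better known for degrading and taking up matrix, although some matrix-linked products, such as the protease inhibitor Timp1, are made by many cell types. In bulk RNA, fewer cells of a type and less RNA per cell cannot be told apart.

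Fibrillar collagen genes gave some of the widest differences between groups, and the 250 bases before their start sites are shown because the type I, III and V collagen genes moved together across libraries. RefSeq (GRCm38.p6) listed promoters for 25 of the 33 members, with 30 start sites in all, and for Col1a2, Col3a1 and Col5a1 among the fibrillar collagens. In the lines below, read 5′ to 3′, capitals mark matches on either strand to the TATA box letters TATAAA, the box CCAAT, the Sp1-type letters GGGCGG, the AP-1-type letters TGANTCA or the Smad-type letters AGACAGAC. No matches overlap here.
Col1a2, chr6:4505368-4505617, plus strand: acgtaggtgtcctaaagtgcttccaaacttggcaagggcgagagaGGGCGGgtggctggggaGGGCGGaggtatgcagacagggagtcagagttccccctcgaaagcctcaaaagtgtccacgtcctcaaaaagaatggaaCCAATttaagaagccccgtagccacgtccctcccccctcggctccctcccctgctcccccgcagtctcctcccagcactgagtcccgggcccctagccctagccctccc
Col3a1, chr1:45311288-45311537, plus strand: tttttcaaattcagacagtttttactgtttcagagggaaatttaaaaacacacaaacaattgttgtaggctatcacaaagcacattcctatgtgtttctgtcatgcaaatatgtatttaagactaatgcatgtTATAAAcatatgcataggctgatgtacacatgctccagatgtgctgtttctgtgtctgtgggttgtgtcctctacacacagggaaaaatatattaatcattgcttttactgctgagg
Col5a1, chr2:27886175-27886424, plus strand: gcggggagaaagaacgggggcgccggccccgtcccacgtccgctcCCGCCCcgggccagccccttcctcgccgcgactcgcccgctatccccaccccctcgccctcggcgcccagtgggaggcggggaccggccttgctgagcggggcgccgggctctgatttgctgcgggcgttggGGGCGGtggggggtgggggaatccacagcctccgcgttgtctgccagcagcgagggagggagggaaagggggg
The Col1a2 window held CCAAT 109 bases before the start site and GGGCGG 205 and 188 bases before it. In Col3a1, TATAAA began 117 bases before the start site and no other of these motifs was found. Col5a1 held GGGCGG 205 and 73 bases before the start, the first of these on the opposite strand. GC content was 62.0% in the Col1a2 window, 35.2% in Col3a1 and 76.4% in Col5a1, against a median of 52.4% over all windows. Among 32851 promoters of the table, 12.4% held TATAAA, 33.9% CCAAT, 32.7% GGGCGG, 6.75% TGANTCA and 1.55% AGACAGAC. Of the 30 member windows, 4 held TATAAA, 8 CCAAT, 15 GGGCGG, 2 TGANTCA and 0 AGACAGAC. No motif of this set stood in all 3 fibrillar collagen windows. A further pair of collagen genes, Col4a1 and Col4a2, is transcribed head to head from start sites 21 bases apart.

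Library totals ran from 13503869 to 19391623 counts, and members held between 10 counts (lowest library of Lum) and 10352 counts (highest library of Acta2). Levels are CPM, counts relative to the library total scaled by TMM factors. Kcnj2 stood at 140 to 172 CPM in floxed and 19.97 to 30.03 CPM in knockout libraries, and Lyz2, into which the Cre sits, at 19710 to 24590 and 7316 to 8525 CPM. The other 11 macrophage markers summed to 6154 to 9011 CPM across all 17 libraries. Libraries also differed in how their counts followed transcript length. The slope of log2 level on log2 length over 7960 genes lay between 0.13 and 0.202 in NaCl libraries, between 0.056 and 0.129 in control ones and between 0.027 and 0.113 in those given conditioned medium alone. It was −0.087, −0.118 and 0.055 in the KCl libraries, 0.171, −0.26 and −0.141 in floxed and −0.216, −0.187 and −0.003 in knockout libraries. Members are long (median transcript 5061 bases, against 3183 over those genes), so this difference touches them directly. Tagln shares 62.4% and Fbn1 20.1% of its exon bases with an antisense gene (Gm48529 and Gm9913), and Acta2 has near-identical actin relatives such as Actg2. The strand setting of the counting, which bears on Tagln and Fbn1, is not given in the sources used here. Nor is the counter named, on which reads shared by Acta2 and its relatives depend. The values of these 3 genes are therefore uncertain.

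Members were highest in control macrophages and lowest in the knockout. Summed over the 33 genes, control libraries held 2912 to 3371 CPM and conditioned medium libraries 2367 to 2526. KCl libraries held 1895 to 2517 CPM and NaCl libraries 2501 to 2725, floxed ones 1793 to 2377 and knockout ones 1037 to 1217. As shares of all counts without TMM scaling, members took 0.389% to 0.432% of a control library, 0.244% to 0.267% of a conditioned medium library, 0.166% to 0.238% of a KCl library and 0.249% to 0.273% of a NaCl library. Floxed libraries gave 0.152% to 0.237% to them, and knockout libraries 0.0909% to 0.115%. The knockout libraries lay below all other libraries on both scales. By group mean, 19 members had their highest level in control, and 30 of 33 had their lowest in the knockout. The exceptions at the lower end were Dcn (lowest in control), Fstl1 (lowest with KCl) and Timp1 (lowest in conditioned medium).

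**Figure D1:**
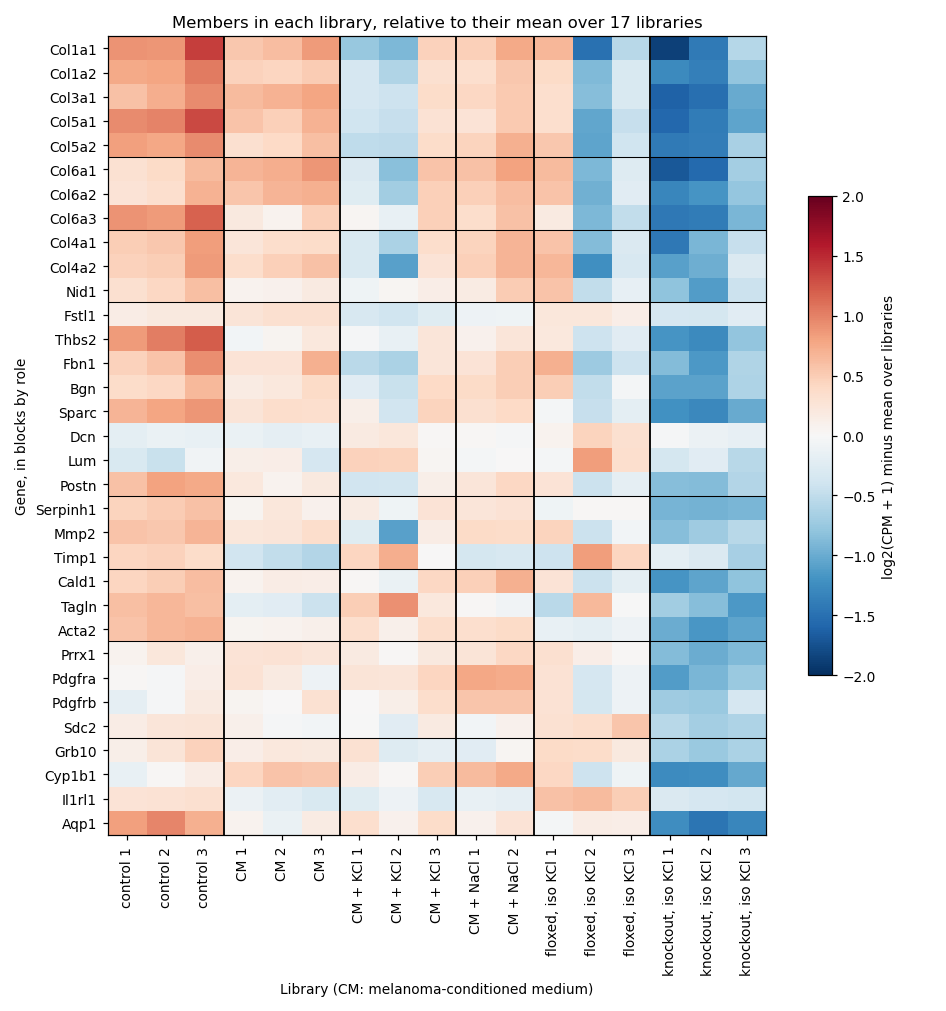
Level of each member in each library as log2(CPM + 1) minus that gene's mean over the 17 libraries, with genes in blocks by role (rows), libraries by group (columns) and CM standing for melanoma-conditioned medium. The median over members lies at 0.45 to 0.65 in the control columns and at −1.06 to −0.66 in the knockout columns, and Dcn, Lum, Timp1 and Tagln show other patterns.

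Per kilobase of transcript, the contractile gene Acta2 (207 CPM per kb in control), the protease inhibitor gene Timp1 (203) and Sparc (133), a collagen-binding glycoprotein, were the highest members. Col1a2 stood at 45.2 and Col1a1 at 35.7 CPM per kb in control, above the other collagen chains of the list, of which Col4a2 was lowest (5.20). Lum (0.414) was the lowest member. Transcription factor and receptor genes of mesenchymal cells were lower, with 7.18 CPM per kb for Prrx1, 4.10 for Pdgfrb and 1.502 for Pdgfra. These level comparisons between genes are per length and hold within the control group.

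Type I collagen, the main fibre of connective tissue, was highest in control libraries. Col1a1 stood at 187, 186 and 263 CPM in control, 146, 154 and 181 in conditioned medium, 58.5, 53.3 and 138 with KCl, and 139.5 and 171 with NaCl. In floxed libraries it stood at 159, 35.1 and 68.1 CPM, and in knockout libraries at 26.7, 36.9 and 67.1. Conditioned medium and NaCl libraries overlapped and lay below the control ones, while the KCl and floxed groups each held 1 library (KCl 3 and floxed 1) far above its companions. For Col1a2, which encodes the partner chain, control libraries had 225, 228 and 273 CPM, conditioned medium 182, 179 and 188, KCl 104, 86.5 and 166, and NaCl 168 and 193. Floxed libraries had 172, 71.4 and 107 CPM of it, and knockout libraries 54.1, 50.4 and 75.7. The same library of each uneven group was high for both chains. Col3a1, the collagen of reticular fibres, stood at 70.3, 77.8 and 90.6 CPM in control and at 72.6, 76.2 and 81.2 in conditioned medium, so these groups overlapped. It stood at 36.6, 34.5 and 60.3 CPM with KCl, 62.5 and 67.5 with NaCl, 58.8, 25.2 and 37.4 in floxed and 14.5, 15.6 and 22.7 in knockout libraries. All knockout libraries were below all floxed ones for Col3a1, whereas for Col1a1 and Col1a2 they overlapped. The type V chains Col5a1 and Col5a2, which set the diameter of type I fibres, ranged from 11.5 CPM (knockout) to 91.4 (control) and from 22.0 (knockout) to 118 (control).

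Collagen VI forms beaded filaments around cells, and its 3 chains did not share one pattern. Col6a1 had 47.2, 50.3 and 59.9 CPM in control, 61.9, 63.8 and 71.1 in conditioned medium, 30.9, 20.9 and 57.1 with KCl and 58.0 and 67.6 with NaCl. It had 59.9, 20.04 and 31.9 CPM in floxed and 11.1, 12.4 and 23.5 in knockout libraries. Conditioned medium libraries were thus above control ones for this chain. Col6a3, the long chain, went the other way, with 58.6, 56.7 and 71.6 CPM in control against 35.8, 32.6 and 43.9 in conditioned medium, 32.0, 27.9 and 43.5 with KCl and 39.9 and 47.5 with NaCl. Its floxed libraries had 35.4, 16.3 and 21.8 CPM and its knockout libraries 10.9, 11.2 and 16.1. Col6a2 resembled Col6a1 and ran from 13.9 to 59.4 CPM. Of the basement membrane members, the type IV chains Col4a1 (12.5 to 64.2 CPM over all libraries) and Col4a2 (8.62 to 39.8) and their linker nidogen, Nid1 (6.04 to 22.2), were each lowest by group mean in the knockout and highest in control. Control and NaCl libraries of Col4a1 and Col4a2 overlapped.

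Among glycoproteins and proteoglycans, Sparc was one of the 2 most closely shared patterns of the list. Sparc had 284, 307 and 328 CPM in control, 212, 227 and 224 in conditioned medium, 192, 136 and 241 with KCl and 221 and 233 with NaCl. It had 172, 129 and 155 CPM in floxed and 75.9, 72.3 and 87.6 in knockout libraries. Control libraries stood above and knockout libraries below all others. Bgn, encoding the small proteoglycan biglycan, had 156, 163 and 190.1 CPM in control, 136, 141 and 157.5 in conditioned medium, 103, 88.4 and 159.6 with KCl and 159 and 171 with NaCl. Its floxed libraries had 170.5, 86.2 and 118 CPM and its knockout libraries 57.5, 57.4 and 78.3. Here the knockout group was again apart, and control and conditioned medium libraries overlapped. Thbs2, an antiangiogenic thrombospondin, had 58.1, 66.1 and 74.9 CPM in control and 30.6, 33.2 and 37.0 in conditioned medium. It stayed between 28.6 and 38.0 CPM with KCl and NaCl, and had 37.0, 23.6 and 26.98 CPM in floxed and 13.6, 12.6 and 17.96 in knockout libraries. Fbn1 (microfibrils, 8.10 to 37.7 CPM) and Postn (periostin, 13.9 to 46.7 CPM) were also highest in control and lowest in the knockout.

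Dcn, Lum and Fstl1 departed from this. Dcn encodes decorin, a collagen-binding proteoglycan made by fibroblasts, and had 60.4, 63.1 and 62.6 CPM in control and 63.0, 60.9 and 62.3 in conditioned medium. It had 78.6, 81.5 and 70.1 CPM with KCl, 70.3 and 67.9 with NaCl, 72.6, 95.3 and 86.5 in floxed and 68.3, 64.1 and 62.0 in knockout libraries. The knockout level of Dcn was thus close to that of control cells, although each knockout library was below each floxed one. Lum (lumican, a relative of decorin) ran from 0.656 to 3.33 CPM, with 10 to 44 counts in a library, where counting error is large. Fstl1, a secreted follistatin-like protein, was lowest in KCl libraries (94.2 to 104 CPM) and knockout ones (97.1 to 106), which overlapped. NaCl libraries had 116 to 117 CPM of it, floxed ones 136 to 146, control ones 138 to 142.5 and conditioned medium ones 149 to 155.

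Serpinh1, the collagen-specific chaperone of the endoplasmic reticulum, had even groups. It stood at 172.5, 179.6 and 190.1 CPM in control, 130.5, 148 and 134 in conditioned medium, 141.5, 118 and 152.5 with KCl and 149 and 155 with NaCl. Floxed libraries had 119, 127 and 128 CPM of it and knockout libraries 65.9, 64.7 and 66.1. The 3 knockout libraries agreed closely and lay far below the floxed ones. Mmp2, the gelatinase of stromal cells, ran from 6.00 to 22.7 CPM, with control highest and knockout lowest by mean. Timp1, an inhibitor of matrix metalloproteinases, had 180.0, 185 and 172 CPM in control and 102, 94.4 and 88.7 in conditioned medium. With KCl it had 181, 221 and 135 CPM, with NaCl 104 and 107, in floxed libraries 100.1, 239.8 and 181 and in knockout libraries 116, 109 and 84.4. The libraries high for Timp1 within the KCl and floxed groups were those low for Col1a1.

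The contractile members are markers of smooth muscle cells and myofibroblasts. Acta2, smooth muscle actin, had 401.5, 428 and 437 CPM in control, 280.4, 281.5 and 288 in conditioned medium, 340.2, 289 and 342 with KCl and 339 and 350.2 with NaCl. In floxed libraries it had 243, 234 and 249.3 CPM, and in knockout libraries 134, 119.9 and 129. The groups of Acta2 did not overlap between control and conditioned medium, nor between floxed and knockout. Tagln (transgelin) had 104, 108 and 104 CPM in control, 59.2, 58.0 and 50.4 in conditioned medium, 95.6, 128.5 and 79.0 with KCl and 69.1 and 64.8 with NaCl. It had 46.2, 107 and 67.7 CPM in floxed and 41.5, 37.3 and 30.2 in knockout libraries. Tagln was therefore as uneven within KCl and floxed as Timp1, in the same direction. Cald1 (caldesmon) ran from 43.9 CPM in the knockout to 165 with NaCl.

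Prrx1, a transcription factor gene of limb and marrow mesenchyme, lay within 43.1 and 56.6 CPM outside the knockout. It had 44.8, 50.01 and 45.7 CPM in control, 51.5, 52.1 and 50.2 in conditioned medium, 48.1, 43.4 and 48.6 with KCl, 50.8 and 56.6 with NaCl and 53.1, 46.4 and 43.1 in floxed libraries. In the knockout it had 22.9, 20.9 and 22.6 CPM, below every other library. Pdgfra, a receptor for platelet-derived growth factor, had 10.1, 9.73 and 10.97 CPM in control, 12.4, 11.4 and 9.25 in conditioned medium, 12.03, 12 and 13.7 with KCl and 17.7 and 17.2 with NaCl. It had 12.4, 7.64 and 9.22 CPM in floxed and 4.04, 4.78 and 5.57 in knockout libraries. Pdgfrb, the related receptor of pericytes and fibroblasts, was likewise highest with NaCl (33.2 CPM in both libraries) and lowest in the knockout (13.22, 12.95 and 17.4 CPM). The heparan sulphate proteoglycan gene Sdc2 was highest in floxed libraries, at 30.8 to 36.8 CPM, and stood at 15.1 to 16.5 CPM in the knockout.

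The remaining members have other roles. Aqp1, a water channel gene, had 14.5, 16.3 and 13.5 CPM in control, 7.57, 8.70 and 8.62 in floxed and 2.71, 2.19 and 2.56 in knockout libraries, the largest fold difference between the latter groups on the list. Cyp1b1, a cytochrome P450 gene, was higher in conditioned medium (106, 117 and 114.5 CPM) and NaCl (122.5 and 133) than in control (70.8, 79.7 and 87.4), and had 32.4, 32.5 and 38.3 CPM in the knockout. Il1rl1, the receptor for interleukin-33, had 20.2 to 20.8 CPM in control, 12.9 to 15.2 in the other C57BL/6J libraries, 23.7 to 26.2 in floxed and 12.5 to 13.3 in knockout libraries. Grb10, an adaptor of insulin and growth factor receptors, had 19.2 to 21.9 CPM in floxed and 9.56 to 10.3 in knockout libraries.

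**Figure D2:**
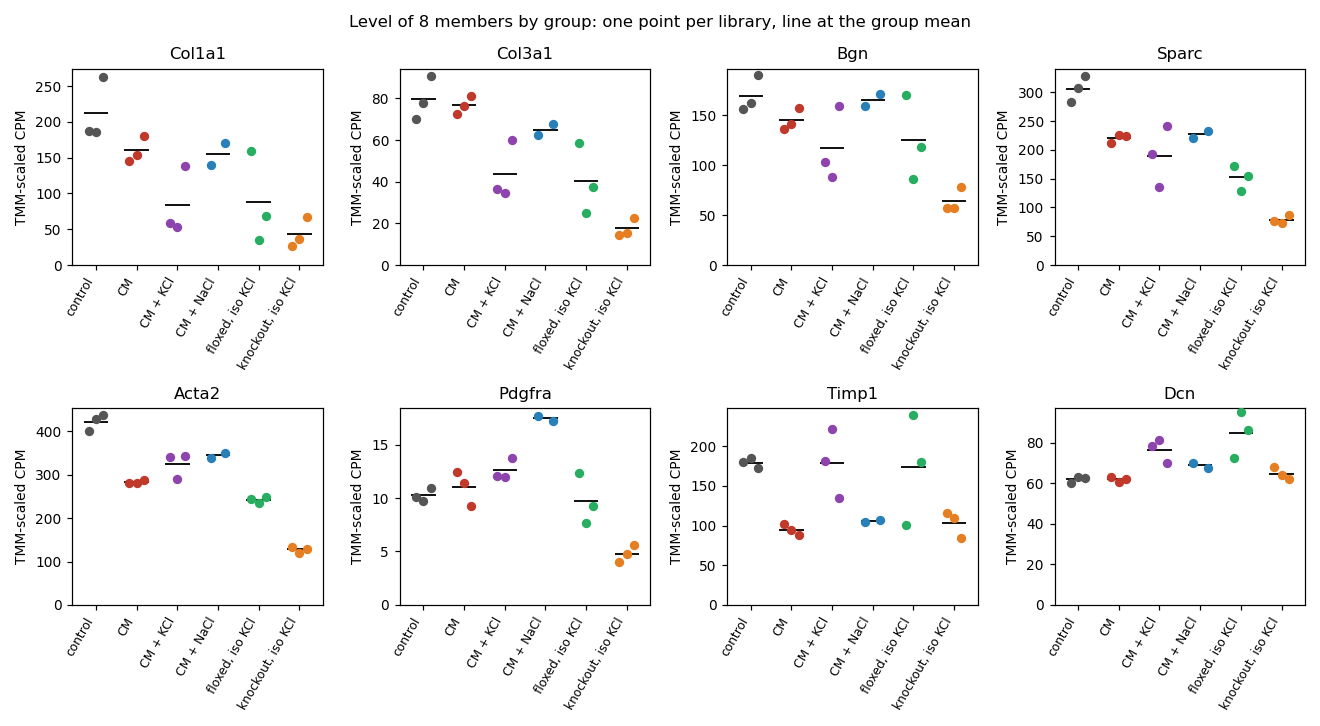
TMM-scaled CPM (linear axes from 0) of 8 members in the 6 groups, with 1 point per library and a line at the group mean; CM is melanoma-conditioned medium. Knockout points lie below floxed points without overlap for Col3a1, Bgn, Sparc, Acta2, Pdgfra and Dcn and overlap with them for Col1a1 and Timp1, and the KCl and floxed points are spread widely for Col1a1, Bgn and Timp1.

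Members resembled one another to very different degrees. Across the 17 libraries, the log2 level of Bgn followed the mean of the other members with a Pearson r of 0.978, Sparc with 0.975, Cald1 with 0.974, Col3a1 with 0.969 and Col1a2 with 0.968. Lower values were found for Fstl1 (0.606), Tagln (0.498), Il1rl1 (0.319), Timp1 (0.071), Lum (0.011) and Dcn (−0.225). These are descriptions over libraries that share groups and depth. Outside all lists, the genes whose levels were most like the mean of the members were Enah (r = 0.992), an actin regulator, Dkk3 (0.972), a secreted glycoprotein of the Dickkopf family, Nedd4 (0.965), a ubiquitin ligase, and Kirrel (0.958), a cell adhesion protein. Ehd2 (0.957), Ptk7 (0.952), Ephx1 (0.947), Parva (0.943), Rbfox2 (0.941), Arhgef40 (0.939), Fads2 (0.938) and Masp1 (0.937) came next, all over 17 libraries. Enah had a mean of 47.5 CPM in control, 31.0 in floxed and 16.2 in knockout libraries.

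Within a group, the spread of members between libraries ran with transcript length. Between floxed libraries 1 and 2, the log2 ratio of the members ranged from −1.25 (Timp1, the shortest transcript) to 2.15 (Col1a1), and 24 of 33 were higher in library 1. Its Pearson r with log2 length was 0.73 over the 33 members and 0.573 over the 7960 genes. Between KCl libraries 3 and 2, r was 0.50 over the members and 0.331 over the genes, and 28 members were higher in library 3. Conditioned medium libraries 2 and 1, by contrast, differed by −0.21 to 0.18 with an r of 0.113 over the members. Values from fits with the slope of each library as a covariate, an alternative added after the data were seen, therefore stand beside the comparisons.

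**Figure D3:**
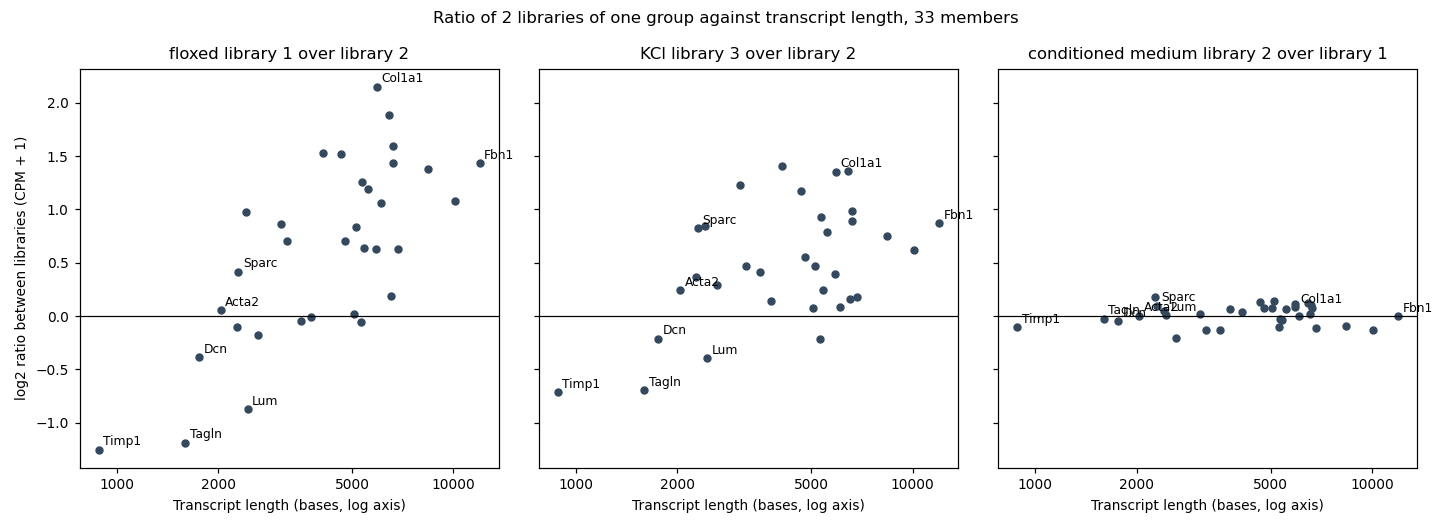
Log2 ratio (CPM + 1) of 2 libraries of one group against transcript length on a log axis, 1 point per member. In the floxed and KCl pairs the short Timp1 and Tagln lie below 0 and long collagens such as Col1a1 above 1, whereas the conditioned medium pair lies within −0.21 and 0.18.

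The first comparison sets conditioned medium against control. Members were mostly lower with conditioned medium. Thbs2 was lower by a log2 fold change of −0.96 ± 0.12 (SE), Timp1 by −0.89 ± 0.15, Tagln by −0.89 ± 0.15, Aqp1 by −0.85 ± 0.13, Col6a3 by −0.71 ± 0.15, Postn by −0.55 ± 0.12 and Acta2 by −0.55 ± 0.07 (3 libraries a group). Cyp1b1 was higher by 0.53 ± 0.11. By role, fold changes had a median of −0.38 over the 5 fibrillar collagens, −0.29 over basement membrane members, −0.21 over glycoproteins and proteoglycans, −0.37 over the chaperone, protease and inhibitor and −0.55 over contractile members. The median was 0.24 over the 3 collagen VI chains and 0.14 over the 4 receptor and transcription factor genes. Over the 33 members the median was −0.31, against −0.04 over all 14519 genes tested, and 24 were below 0. At an adjusted p below 0.05 (edgeR, quasi-likelihood), 13 members were counted as lower and 1 as higher, while 26.4% and 27.2% of all genes were (53.5% in either direction). All conditioned medium libraries lay below all control ones for 19 members (35.9% of all genes) and above them for 4 (31.9%). As the members were listed with these levels in view, nothing is read from these counts. With library totals in place of TMM the median of all genes moved to −0.37. Under that scaling 22 members were counted as lower (45.6% of all genes) and 0 as higher (15.1%), and Fstl1 (−0.20) and Dcn (−0.31) turned negative. With the length slope as a covariate 17 were lower and 5 higher (62% of all genes in either direction). Marker lists of other cell types went both ways. Marrow reticular markers (8 genes) summed to 303 to 321 CPM in control and 254 to 273 in conditioned medium. Of 7 tested there, 6 were called lower and 1 higher. They summed to 292 to 314.5 CPM with KCl and 275 to 300 with NaCl. Against conditioned medium alone, 4 of the 7 were called higher and 1 lower with KCl (26.6% and 27.4% of all genes). With NaCl 3 were called higher and 0 lower (13.7% and 14.9%). Osteoblast markers (8 genes) summed to 19.6 to 24.3 CPM in control and 6.82 to 10.2 in conditioned medium, chondrocyte markers (8) to 14.4 to 16.9 and 6.78 to 7.30, pericyte and smooth muscle markers (8) to 8.34 to 9.32 and 3.05 to 3.45, and endothelial markers (10) to 34.3 to 40.5 and 15.8 to 20.3. Over all libraries, Runx2 held 51.1% of the osteoblast sum, Comp 45.4% of the chondrocyte sum and Mcam 42.5% of the pericyte sum. Vwf held 58.6% of the endothelial sum. The sum of neutrophil markers (9) was higher in conditioned medium libraries (18.4 to 22.3 CPM) than in control ones (7.80 to 8.88). S100a8 held 78.4% of that sum over all libraries, and of 5 tested 2 were called higher and 1 lower. The sum of macrophage markers other than Lyz2 was also higher (8820 to 8895 against 7158 to 7835 CPM). Of all 12 macrophage markers, Lyz2 included, 7 were nevertheless called lower and 2 higher, with a median fold change of −0.31. The part of these cell types in the lower levels of the members was not tested.

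Matrix genes outside the list also differed between conditioned medium and control. Of 118 tested, 22 rose and 49 fell at an adjusted p below 0.05 by edgeR, against 27.2% and 26.4% of all genes. In either direction 60.2% of them were called, against 53.5% of all genes. The lists of these genes were chosen with earlier results of these data known. Their counts and p-values, here and below, are therefore a description, and nothing is read from this difference. With library totals 15 rose and 71 fell (15.1% and 45.6% of all genes). Among 39 other fibroblast and interstitial genes, 4 rose and 14 fell. The TGF-beta responsive genes Ccn1 (−1.58 ± 0.11, adjusted p = 3.15e-08) and Ccn2 (−1.67 ± 0.12, adjusted p = 5.77e-08) fell, as did Thbs1 (−1.29 ± 0.09, adjusted p = 4.72e-08), another thrombospondin, and Igfbp4 (−1.51 ± 0.11, adjusted p = 9.61e-08). In the TGF-beta list, 12 of 17 fell and 3 rose. Those that fell included the receptor genes Tgfbr1 (284 to 99.4 CPM, −1.49 ± 0.08, adjusted p = 1.70e-09) and Tgfbr2 (−1.27 ± 0.12, adjusted p = 8.55e-07) and the matrix protein gene Tgfbi (−1.66 ± 0.11, adjusted p = 1.52e-08). Of 12 other contractile genes 8 fell and 0 rose, with Cnn1, Tpm2, Cnn3 and Actg2 between −1.38 and −0.69 on the log2 scale.

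Proteases, enzymes and basement membrane genes outside the list held genes of both directions. For the counts of this paragraph, the shares of all genes were 27.2% higher and 26.4% lower. Of 14 tested proteases and inhibitors 7 rose and 3 fell. Mmp13, a collagenase, rose from 15.8 to 335 CPM (4.44 ± 0.12, adjusted p = 1.88e-12), Adamts4, an aggrecanase, rose from 1.74 to 19.0 CPM (3.47 ± 0.18, adjusted p = 1.48e-09), and Mmp9 rose by 1.53 ± 0.10 (adjusted p = 1.33e-08). Timp2 fell from 409.9 to 240.4 CPM (−0.75 ± 0.09). Of 25 collagen processing genes 5 rose and 11 fell. The prolyl hydroxylase genes P4ha1 (0.98 ± 0.07, adjusted p = 2.84e-08) and P4ha2 (1.06 ± 0.07, adjusted p = 3.96e-08) rose, while Plod2 (−0.80) and Loxl3 (−0.84), of lysine hydroxylation and cross-linking, fell. Of 11 other basement membrane genes 3 rose (Agrn by 1.35 ± 0.12, Col18a1 by 0.57, Lama4 by 0.65) and 1, Lamb1, fell (−0.42).

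Adding KCl to conditioned medium was accompanied by lower levels of fibrillar collagens and higher levels of a few short members. Col1a1 was lower by −0.94 ± 0.31, Col3a1 by −0.80 ± 0.17, Col5a1 by −0.74 ± 0.18, Col1a2 by −0.62 ± 0.18 and Col5a2 by −0.60 ± 0.20, a median of −0.74 for these 5. Col6a1 (−0.84 ± 0.26), Col4a2 (−0.76 ± 0.25), Fbn1 (−0.70 ± 0.22), Fstl1 (−0.62 ± 0.07) and Mmp2 (−0.60 ± 0.22) were also lower. Timp1 (0.93 ± 0.15), Tagln (0.87 ± 0.15), Dcn (0.32 ± 0.08) and Acta2 (0.20 ± 0.07) were higher. Prrx1, Pdgfra, Pdgfrb and Sdc2 stood between −0.13 and 0.20. The members' median was −0.20, against −0.01 over all genes. Of the 33, 13 were counted as lower and 4 as higher, against 27.4% and 26.6% of all genes (53.9% in all). KCl libraries lay below all conditioned medium ones for 11 members (29.7% of all genes) and above them for 4 (26.9%). The count depended on single libraries and on length. It was 8 without KCl library 1 (48.6% of all genes), 8 without conditioned medium library 3 (46.9%) and 7 with KCl library 3 alone (45.4%), of which 4 were higher and 3 lower. With the length slope as a covariate it was 10 (45.7% of all genes), of which 6 were higher and 4 lower, with Col6a3 at 0.29 and Thbs2 at 0.24. The members' median was then 0.001, and 0.021 with KCl library 3 alone. The 5 fibrillar collagens stood between −0.40 (Col3a1) and −0.13 (Col5a2) with the covariate, and between −0.35 (Col3a1) and −0.08 (Col5a2) with KCl library 3 alone. With library totals the count was 20 (55.2% of all genes), of which 2 were higher and 18 lower, with Acta2 at −0.009, and the median of all genes was −0.22.

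Of 118 other matrix genes, 23 rose and 36 fell with KCl by edgeR. For these counts and those by list below, the shares of all genes were 26.6% higher and 27.4% lower. In either direction 59 of the 118 were called, against 53.9% of all genes. With library totals 16 rose and 46 fell (18% and 37.2% of all genes). With the slope as a covariate 28 rose and 15 fell (22.2% and 23.5% of all genes). Tgfbi fell from 152 to 37.8 CPM (−1.995 ± 0.11, adjusted p = 1.59e-08), Emilin1, an elastic fibre protein gene, from 38.1 to 10.6 CPM (−1.83 ± 0.15, adjusted p = 4.35e-07), and Mmp9 from 44.8 to 14.5 CPM (−1.62 ± 0.10, adjusted p = 3.86e-08). Mmp12, the macrophage elastase gene, rose from 571 to 1423 CPM (1.33 ± 0.08, adjusted p = 4.56e-08), Mmp13 by 0.90 ± 0.10 (adjusted p = 6.76e-06) and Twist2, a mesenchymal transcription factor gene, from 1.66 to 6.75 CPM (2.01 ± 0.25, adjusted p = 1.97e-05). By list, 5 rose and 9 fell among fibroblast and interstitial genes, and 2 and 4 among basement membrane genes, where Agrn (−0.91) and Col18a1 (−1.09) fell. Among processing enzymes 2 rose and 9 fell, with Crtap (−0.73), Ppib (−0.49) and P4ha1 (−0.35) among the latter. Of the contractile genes 5 rose (Cnn3 by 0.58, Tpm2 by 0.65, Tpm1 by 0.40) and 4 fell (Flna by −0.75), of the TGF-beta list 5 and 6, and of the proteases 4 and 4.

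NaCl was at the same concentration as KCl and is set against the same conditioned medium libraries, which both comparisons share. A few members were higher with NaCl. Pdgfra was higher by 0.67 ± 0.13, Cald1 by 0.49 ± 0.13, Pdgfrb by 0.44 ± 0.13 and Acta2 by 0.28 ± 0.08, and Fstl1 was lower by −0.39 ± 0.07. The 5 fibrillar collagens stood between −0.24 and 0.14. The members' median was 0.11, against −0.01 over all genes, and it was −0.12 once the length slope was a covariate. As 4 were counted higher and 1 lower, the shares of all genes were 13.7% and 14.9% (28.7% in all). NaCl libraries lay above all conditioned medium ones for 13 members (29.9% of all genes) and below them for 3 (30.8%). The count was 3 without NaCl library 1 (17.1% of all genes) and 2 without NaCl library 2 (14.6%), where the lone NaCl library is taken to vary like the other groups. It was 3 without conditioned medium library 1 (22.4%) and 3 without library 2 (22.2%). With library totals it was 2 (27.7% of all genes), 1 higher and 1 lower. With the length slope as a covariate it was 16 (35.9% of all genes), of which 6 were higher and 10 lower, with Col5a2 at −0.30 and Col4a2 at −0.41.

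Of the 118 other matrix genes, 18 rose and 10 fell with NaCl by edgeR, against 13.7% and 14.9% of all genes. In either direction 23.7% of them were called, below the 28.7% of all genes. With library totals 12 rose and 11 fell (10.2% and 17.5% of all genes). With the slope as a covariate 18 rose and 27 fell (17.8% and 18.1% of all genes). The count of 28 was 17 without NaCl library 1 and 11 without NaCl library 2. Tgfbi fell (−2.34 ± 0.13, adjusted p = 7.09e-08), Igfbp4 fell (−1.16 ± 0.13, adjusted p = 3.12e-05) and Mmp9 fell (−1.002 ± 0.11, adjusted p = 1.94e-05), while Mmp12 rose (1.15 ± 0.09, adjusted p = 1.47e-06) and Mmp13 rose (0.86 ± 0.11, adjusted p = 6.50e-05). By list, the fibroblast genes had 6 up and 4 down, basement membrane genes 1 up (Lamc1, 0.54) and 0 down, processing enzymes 1 and 3, contractile genes 3 and 0, the TGF-beta list 2 and 2, and proteases 5 and 1.

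Set directly against NaCl, KCl went with lower levels of long collagens and higher levels of Timp1 (0.77 ± 0.16) and Tagln (0.60 ± 0.17). Col1a1 was lower by −0.89 ± 0.34, Col4a2 by −0.86 ± 0.27, Col5a2 by −0.74 ± 0.22, Col4a1 by −0.71 ± 0.21, Mmp2 by −0.70 ± 0.23, Col1a2 by −0.60 ± 0.20, Col3a1 by −0.56 ± 0.18 and Postn by −0.53 ± 0.14. Cald1 (−0.48 ± 0.13), Pdgfra (−0.46 ± 0.13), Cyp1b1 (−0.46 ± 0.12) and Pdgfrb (−0.40 ± 0.14) were lower as well. The members' median was −0.40, against −0.04 over all genes, and 27 of 33 were below 0. Counted were 13 as lower and 2 as higher, against 16.2% and 15.4% of all genes (31.6% in all). KCl libraries lay below both NaCl libraries for 17 members (27.8% of all genes) and above both for 3 (23.4%). The length slopes of the KCl libraries, at most 0.055, did not overlap those of the NaCl libraries, at least 0.13, so slope and salt cannot be told apart here. With the slope as a covariate edgeR counted 0 members, against 2.09% of all genes, Col1a2, Col3a1, Col5a1 and Col4a2 stood between 0.20 and 0.26, and the members' median was 0.145. The count of 15 was 4 without KCl library 1 (20.9% of all genes), 25 without KCl library 3 (48.3%) and 1 with KCl library 3 alone (15.7%). It was 5 without NaCl library 1 (13.8%) and 0 by edgeR without NaCl library 2 (6.3%), fits that take the lone NaCl library to vary like the other groups.

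Other matrix genes gave 8 higher and 24 lower with KCl than with NaCl by edgeR, against 15.4% and 16.2% of all genes. In either direction 27.1% of the 118 tested were called, below the 31.6% of all genes. With library totals 3 were higher and 31 lower (10.5% and 24.4% of all genes). The edgeR count of 32 was 17 without KCl library 1, 54 without KCl library 3 and 3 with the slope as a covariate. Adamts4 was lower (12.96 against 31.8 CPM, −1.28 ± 0.16, adjusted p = 0.000454), Emilin1 was lower (−0.97 ± 0.16, adjusted p = 0.00192) and Agrn was lower (−0.71 ± 0.13, adjusted p = 0.00321). Tgfbr2 was lower (−0.57 ± 0.13, adjusted p = 0.00811), and Ccn2 (0.57 ± 0.14, adjusted p = 0.00861) and Tpm2 (0.50 ± 0.10, adjusted p = 0.00419) were higher. By list, fibroblast genes had 4 higher and 7 lower, basement membrane genes 0 and 4, processing enzymes 0 and 5, contractile genes 1 and 2, the TGF-beta list 1 and 2, and proteases 2 and 4.

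The last comparison is the knockout against floxed cells, both in conditioned medium with isotonic KCl. All 33 members had lower means in the knockout. Aqp1 differed most (−1.75 ± 0.18), followed by Lum (−1.36 ± 0.41), Col6a1 (−1.26 ± 0.46), Cyp1b1 (−1.22 ± 0.23), Col3a1 (−1.21 ± 0.33), Prrx1 (−1.12 ± 0.13) and Col5a1 (−1.11 ± 0.36). At the other end were Dcn (−0.40 ± 0.13), Fstl1 (−0.51 ± 0.10) and Pdgfrb (−0.60 ± 0.22). By role the medians lay between −0.82 for the chaperone, protease and inhibitor group and −1.14 for the genes of other roles, with −1.02 for fibrillar collagens, −0.85 for basement membrane, −0.94 for contractile and −1.06 for receptor and transcription factor genes. The narrowest errors belonged to genes with even libraries, such as Serpinh1 (−0.94 ± 0.10), Acta2 (−0.93 ± 0.11), Il1rl1 (−0.97 ± 0.12) and Sdc2 (−1.08 ± 0.13). The members' median was −0.97, against −0.003 over all 12782 genes tested. Knockout libraries lay below all floxed ones for 22 members (6.07% of all genes) and overlapped with them for 11, which included Col1a1, Col1a2, Col5a2, Col6a1, Col6a2, the 3 basement membrane members, Fbn1, Timp1 and Pdgfrb.

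Few genes of any kind were called in this comparison. By edgeR 0 members were counted at an adjusted p below 0.05, against 0.0156% of all genes, and 28 had an unadjusted p under 0.05 and were lower, as did 4.09% of all genes. DESeq2 counted 14 members as lower (1.06% of all genes) and 0 as higher. With the length slope as a covariate 32 were counted as lower (4.12% of all genes), and the median of the members was −0.85. Without floxed library 1 and knockout library 3, which have the highest slopes of their groups, 11 were counted as lower (0.234%) and the median was −0.84. Without floxed library 1 alone 5 were counted as lower (0.0844%), and with no low-count filter 5 (0.0353%). The slopes of knockout and floxed libraries overlapped. Nothing is read from these counts for the members, whose choice used the levels of both groups.

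**Figure D4:**
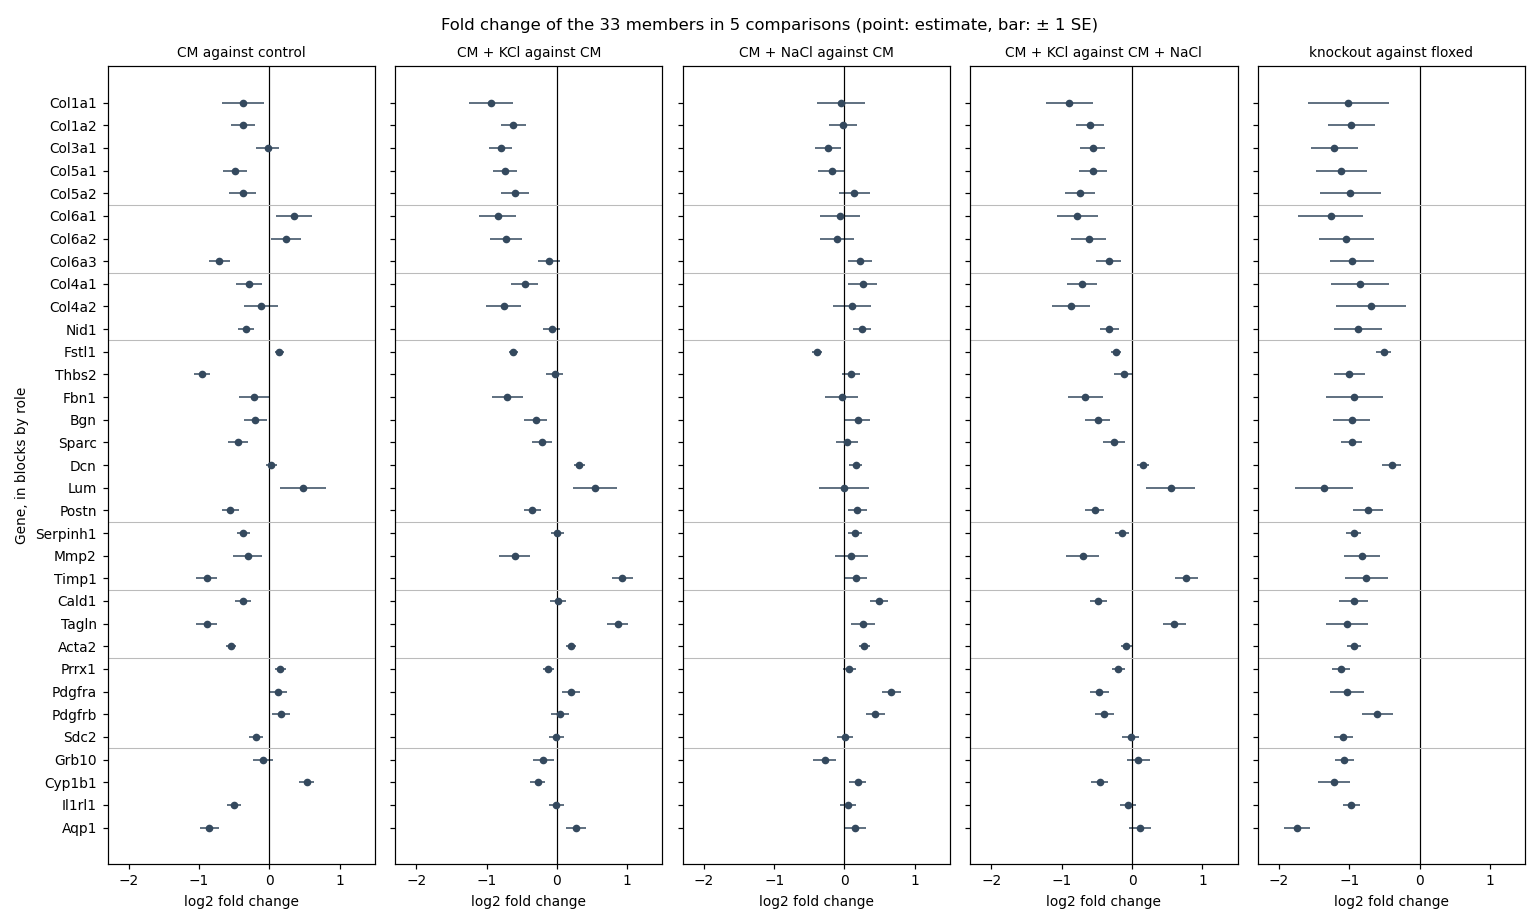
Log2 fold change (point) and its standard error (bar) of the 33 members in the 5 comparisons, genes in blocks by role; CM is melanoma-conditioned medium. All 33 points lie left of 0 in knockout against floxed, from −1.75 (Aqp1) to −0.40 (Dcn), while KCl against conditioned medium runs from −0.94 (Col1a1) to 0.93 (Timp1).

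Matrix genes outside the list were not called between knockout and floxed by edgeR (0 of 109, against 0.0156% of all genes). In either direction 50 had an unadjusted p under 0.05. For all genes, only those with such a p that were also lower were counted (4.09%), which is not a like measure. DESeq2 called 24 of these matrix genes, all lower (1.06% of all genes). The fit with the slope as a covariate called 52 lower and 4 higher (4.12% and 3.19% of all genes). The median fold change of the 109 by edgeR was −0.65, with 90 below 0. By list the median was −0.80 over 34 fibroblast and interstitial genes, −0.70 over 10 basement membrane genes, −0.75 over 10 contractile genes, −0.53 over 24 processing enzymes, −0.25 over 17 TGF-beta genes and −0.19 over 14 proteases. The mesenchymal cadherin gene Cdh11 stood at 64.9 CPM in floxed and 33.4 in knockout libraries (−0.97 ± 0.14, adjusted p = 0.111 by edgeR). This gene and Loxl1 (−1 ± 0.15, adjusted p = 0.111), Ccn5 (−1.06 ± 0.14, adjusted p = 0.0957) and Pdpn (0.27 ± 0.14) were picked after their values were seen.

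Macrophage markers other than Lyz2 overlapped between knockout and floxed cells. The 11 of them summed to 7093 to 9011 CPM in floxed and 7885 to 8513 in knockout libraries. Per 1000 CPM of these markers, members had 240 to 264 CPM in floxed and 131 to 143 in knockout libraries. The same ratio, computed after the data were seen, was 277 to 308 in KCl libraries and 290.3 to 316.5 in NaCl ones, against 268 to 284 in conditioned medium alone and 407 to 430 in control cells. As a sum it was thus fairly even within the groups whose libraries differed in slope, and KCl and NaCl overlapped on it. That sum joins members uneven in opposite directions. In floxed libraries these included Col1a1 (35.1 to 159 CPM) and Timp1 (100.1 to 239.8 CPM). The evenness of the sum does not hold for single members. The markers in the unit of the ratio did not move as one between conditioned medium and control. Of all 12, Lyz2 included, 7 were called lower there and 2 higher (26.4% and 27.2% of all genes). Of other cell types, the marrow reticular list of 8 markers summed to 246.8 to 254.8 CPM in floxed and 222 to 238 in knockout libraries, with Vcam1 as its most abundant gene and Lepr at 0.20 to 0.36 CPM by mean in the C57BL/6J groups. In the same order, osteoblast markers had 4.92 to 10.2 and 3.85 to 5.97 CPM, chondrocyte markers 7.16 to 8.08 and 4.45 to 6.69 CPM and pericyte and smooth muscle markers 2.04 to 3.31 and 1.13 to 2.23 CPM. Endothelial markers went the other way by mean, with 16.4 to 25.7 CPM in floxed and 22.5 to 30.9 in knockout libraries. Vwf held 58.6% of their sum over all libraries. Of the 10 listed, 4 were tested and 0 called (0.0156% of all genes). All knockout libraries lay above all floxed ones for 3 of these 4 (5.16% of all genes). Neutrophil markers had 8.99 to 24.96 and 19.3 to 26.8 CPM. Kcnj8 was at 0 counts in all libraries, and 4 of the 8 pericyte markers had at most 3 counts in any library. Their part in the differences of the members was not tested.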

How the data were processed

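RNA of 17 libraries was counted per Ensembl mouse gene identifier, and the authors deposited raw counts, 1 column per library, which were used as they are. DESeq2 1.30.1 is named, with no role, per the submitters' processing notes. The names of the aligner and counter, the genome build and the strand setting were not given in the sources used here. The 260 identifiers without a symbol held 0.0121% of all counts and were kept. Symbols, transcript lengths and overlaps came from GENCODE M21, and promoters from RefSeq (GRCm38.p6). The members, 6 lists of other matrix genes (135 genes) and 14 cell type marker lists were chosen with earlier results of these data known, and 280 of 281 symbols matched.

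Counts were fitted with edgeR 4.0.16 in R 4.3.3 (quasi-likelihood F test with TMM factors, robust dispersion and filterByExpr at its defaults). One fit held the 11 C57BL/6J libraries, with a mean for each group (14519 genes), and another the 6 isotonic libraries (12782 genes). P-values were adjusted by Benjamini-Hochberg across every gene that a comparison tested, and 0.05 was the threshold. Fits were tested on simulated data. Levels are CPM scaled by TMM over all libraries. The length slope is the slope of a library's log2 level, relative to the mean of all libraries, on log2 transcript length. Genes outside the members were named by rule: up to 4 called genes of each list and comparison by smallest p, and the 12 genes outside all lists most like the mean of the members. One gene that the rule named is not reported here. Alternatives were DESeq2 1.42.0, RLE factors, library totals alone, other low-count filters, each replicate left out, the replicate number as a block and plain CPM. A length slope covariate, KCl library 3 alone, and floxed library 1 with knockout library 3 left out were added after the data were seen. Same-number libraries did not deviate together in every pair of any comparison (threshold 0.1), so no block was used. Counts of replicate pairs differed by more than counting error (chi-square of 2.08 to 146 per degree of freedom).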

Additional observations from a re-analysis of the deposited data

How the results depend on the processing

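Over all alternatives, 97 of the counts of called genes stayed within 1.5 times the reported count and 35 moved further. Of the fold changes of named genes, 2902 kept their direction and side of the threshold, 156 passed it, 245 lost it and 23 turned round, and 132 group levels moved by less than 1 SD and 66 by more with plain CPM. The cause of these changes was not tested. Between conditioned medium and control, 22 members were called with library totals alone and 22 with the length slope as a covariate, against 14 reported. Leaving out single replicates gave 10 to 14 members and 64 to 70 other matrix genes, and with totals Fstl1 was at −0.20 and Dcn at −0.31. Between KCl and conditioned medium, 10 members were called with the slope covariate and 7 with KCl library 3 alone, against 17. Single replicates left out gave 8 to 20 members and 46 to 71 other matrix genes, Col6a3 (0.29) and Thbs2 (0.24) turned round with the slope covariate, and Acta2 (−0.009) did so with totals. Between NaCl and conditioned medium, 2 members were called with totals and 16 with the slope covariate, against 5. The covariate gave 45 other matrix genes, Col5a2 at −0.30 and Col4a2 at −0.41, and replicates left out gave 2 to 5 members and 11 to 24 other matrix genes. Between KCl and NaCl, edgeR called 0 members and 3 other matrix genes with the slope covariate, against 15 and 32. There Col1a2 (0.21), Col3a1 (0.20), Col5a1 (0.26), Col5a2 (0.17), Col4a1 (0.17), Col4a2 (0.20), Mmp2 (0.02), Cald1 (0.041), Tagln (−0.066), Pdgfrb (0.012), Cyp1b1 (0.001), Vcan (0.009), Lamc1 (0.011), P4ha3 (0.033), Flna (0.047) and Mmp14 (−0.40) turned round. KCl library 3 alone gave 1 member and 12 other matrix genes, and replicates left out gave 0 to 25 members and 4 to 54 other matrix genes. Between knockout and floxed, 14 members were called with DESeq2, 5 with no low-count filter, 32 with the slope covariate and 11 without floxed library 1 and knockout library 3, against 0. Other matrix genes called were 24 with DESeq2, 56 with the slope covariate and 2 without those libraries, against 0, and replicates left out gave 0 to 5 members and 0 other matrix genes. The replicate number as a block is a shared number and no shown pairing. With it, 16, 19, 7, 22 and 0 members were called in the order of the comparisons above. Other matrix genes called were 75, 64, 35, 47 and 0. Of all genes, 55.9%, 56.2%, 32.5%, 40% and 0% were called in the same order. Depth limits Lum (10 to 44 counts a library) most. Where 1 library is left in a group, it is assumed to vary like the others.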

Other observations

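Markers of further cell types were low. Adipocyte markers (7 genes) summed to at most 1.44 CPM in any library, with Plin1 and Lep at 0 counts in all, and epithelial markers (6) to at most 1.88 CPM. Lymphocyte markers (7) ran from 0.0656 to 0.856 CPM, erythroid markers (6) from 0.287 to 2.62 CPM and skeletal muscle markers (8) from 1.12 to 7.15 CPM. Mast cell and basophil markers (8), of interest because Il1rl1 is also a gene of these cells, were highest in floxed (8.75 to 11.95 CPM), KCl (9.45 to 11.2 CPM) and knockout libraries (7.54 to 10.99 CPM). Control libraries had 7.51 to 9.08 CPM of them, NaCl libraries 7.82 to 8.46 and conditioned medium libraries 4.81 to 6.38, with Tpsb2 at 0 counts in all. Neutrophil markers (9), with S100a8 holding 78.4% of their sum, had 7.80 to 8.88 CPM in control and 18.4 to 22.3 in conditioned medium. In the melanocyte and melanoma list (7), Gpnmb, which macrophages also express, held 99.99% of the counts, and Tyr, Dct and Slc45a2 were at 0 counts in all libraries of cells given melanoma-conditioned medium and of control cells.

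Of 5 tested chondrocyte and 3 tested osteoblast markers, 1 each was called between either salt and conditioned medium alone. Of all genes, 53.9% were called with KCl and 28.7% with NaCl. Comp, a cartilage matrix gene, rose from 2.16 CPM in conditioned medium to 10.5 with KCl (2.29 ± 0.16, adjusted p = 1.61e-07 by edgeR) and to 9.48 with NaCl (2.14 ± 0.18, adjusted p = 2.15e-06). Runx2, an osteoblast transcription factor gene, rose from 2.98 to 7.03 CPM with KCl (1.25 ± 0.19, adjusted p = 0.000105) and to 8.55 with NaCl (1.52 ± 0.20, adjusted p = 9.31e-05). The other chondrocyte markers tested were not called, with Col2a1 at −0.85 ± 0.36 with KCl and −0.64 ± 0.38 with NaCl and Sox9 at 0.07 ± 0.48 and −0.66 ± 0.56. The list's median was 0.07 with KCl and −0.64 with NaCl. Of the osteoblast markers not called, Alpl stood at −0.45 ± 0.27 with KCl and 0.08 ± 0.285 with NaCl, and Sp7 at 0.21 ± 0.65 and 1.05 ± 0.61. Both called genes are outside the rule for named genes and were chosen after their values were seen. Between KCl and NaCl neither passed the threshold, with differences of 0.15 ± 0.16 for Comp and −0.27 ± 0.19 for Runx2.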
